A study of Mus musculus with 18 samples.

Results

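Pericytes, fibroblasts and myofibroblasts, the stromal cells that line vessels and fill the space between tubules, were followed through 10 of their marker genes in mouse kidney cortex injured with aristolochic acid I (AAI), a plant toxin taken up by the proximal tubule. The genes are Acta2, Tagln, Des and Myh11 of the contractile apparatus, the receptors Pdgfra, Pdgfrb and Notch3, the proteoglycan gene Cspg4, and the surface protein genes Fap and Thy1. They were chosen by name as stromal markers, with earlier results of these data known, from a table of 24062 gene rows measured in whole cortex. All 10 were in the table, and all 10 were among the 14604 genes that reached 1 CPM (reads scaled to the same total in each library) in 3 or more of the 18 libraries and were tested. Fap reached that level only in AAI libraries, so its place among the tested genes rests on them.

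Total RNA was sequenced from 6 groups of 3 libraries, all from C57Bl/6 mice. Klf6fl/fl (fl/fl) mice carry floxed alleles of Klf6, a zinc finger transcription factor gene, and Klf6PTKO (PTKO) is the label of mice with a knockout in the proximal tubule. Each genotype was given the vehicle DMSO, 3 weeks of AAI, or the same AAI course followed by a further 3 weeks for remodeling, called 6 weeks here as in the sample titles. The Cre driver, the AAI dose, the age and sex of the mice and the week of the DMSO kidneys are not given in the sources used here. A single DMSO group per genotype was the control at both times, so the AAI comparisons of a genotype share their controls. No label says that libraries of a group are separate animals, so the p-values measure the spread between libraries, which may be technical.

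On the mm10 build with GENCODE M21 gene models, each of these genes is protein-coding. Acta2 (ENSMUSG00000035783.9) lies at chr19:34241090-34255590 and Notch3 (ENSMUSG00000038146.8) at chr17:32120820-32166852, both on the minus strand. Myh11 (ENSMUSG00000018830.10) at chr16:14194535-14291372 and Fap (ENSMUSG00000000392.17) at chr2:62500943-62574075 are also on the minus strand. Des (ENSMUSG00000026208.9) at chr1:75360329-75368579 and Pdgfra (ENSMUSG00000029231.15) at chr5:75152292-75198215 are on the plus strand. Chromosome 9 holds 3 of the genes, Thy1 (ENSMUSG00000032011.5) at chr9:44043384-44048579 and Cspg4 (ENSMUSG00000032911.6) at chr9:56865033-56899870 on the plus strand and Tagln (ENSMUSG00000032085.5) at chr9:45929619-45936058 on the minus strand. Pdgfrb is ENSMUSG00000024620.11. Exons of Tagln overlap those of Pcsk7 on the opposite strand and exons of Des overlap Gm15179, and whether counting used strand is not given in the sources used here. Acta2 shares most of its coding sequence with the other muscle actins. Reads could be split between these genes in counting. Of the other muscle actins only Actg2 and Acta1 were read here, with group means at or below 1.52 CPM and 1.14 CPM.

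As background, pericytes wrap capillaries and vascular smooth muscle cells wrap arterioles, while resident fibroblasts lie between the tubules. After tubular injury pericytes and fibroblasts can become myofibroblasts, contractile cells that lay down scar matrix and are known by smooth muscle actin, the product of Acta2. Platelet-derived growth factors (PDGF) bind the receptors made from Pdgfra and Pdgfrb and drive these cells to divide and migrate. Jagged and Delta ligands activate Notch3 on mural cells, and serum response factor (SRF) with cofactors of the myocardin family turns on contractile genes such as Acta2, Tagln and Myh11.

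Libraries held 11722625 to 27213219 reads. Klf6, the targeted gene, read 39.2 to 42.3 CPM in fl/fl and 40.2 to 56.7 CPM in libraries labelled PTKO under DMSO, 256 to 308 and 229 to 309.7 CPM at 3 weeks and 201 to 284 and 228 to 369.8 CPM at 6 weeks, with no genotype difference called (limma adjusted p from 0.576 to 1). Klf6 in whole cortex therefore does not check the genotype label, and these libraries are called labelled PTKO. Under AAI the median tested gene was itself higher than under DMSO, by 0.45 (log2) at 3 weeks and 0.45 at 6 weeks in fl/fl and by 0.42 and 0.36 in the libraries labelled PTKO, so fold changes are also given relative to that median. In fl/fl at 3 weeks 8466 genes were called higher and 2651 lower, against 5350 and 4998 after median-of-ratios scaling, which centres the typical gene. At 6 weeks the split was 8733 and 2036 against 4996 and 4712. Under the PTKO label it was 8354 and 2032 against 4798 and 4572 at 3 weeks, and 7842 and 1659 against 4201 and 4204 at 6 weeks. Between genotypes at 6 weeks it was 477 and 1721 against 801 and 920. Summed adipocyte markers stood apart at 98.7 CPM in replicate 2 of the DMSO libraries labelled PTKO and 435 CPM in replicate 2 of those at 6 weeks, against 24.7 to 45.2 CPM elsewhere. Summed podocyte markers, which belong to cortical glomeruli, were 718 to 872 CPM in fl/fl and 754 to 974 CPM in libraries labelled PTKO under DMSO.

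AAI raised all of the stromal markers but Myh11, the gene of mature smooth muscle, in fl/fl at both times and under the PTKO label at 3 weeks. In fl/fl kidneys 9 of the 10 genes were higher than under DMSO at 3 weeks, when 58.0% of all tested genes were, and 9 at 6 weeks, against 59.8% of all. In the libraries labelled PTKO 9 were higher at 3 weeks, against 57.2% of all tested genes, and 6 at 6 weeks, against 53.7%, a share near that of all genes, with Acta2, Pdgfra and Pdgfrb also not called. That 6-week count was 3 under median-of-ratios scaling, with edgeR and with DESeq2, namely Tagln, Fap and Thy1. Each of these counts includes Fap, which was tested only because of its AAI libraries. Lower were 0 of the 10 in each of the first 3 comparisons, against 18.2%, 13.9% and 13.9% of all. Myh11 was called in none of the first 3 of these comparisons and fell in the fourth, where 11.4% of all tested genes fell. The median log2 fold change of the 10 genes was 2.04 and 1.48 in fl/fl at 3 and 6 weeks, and 1.58 and 0.58 under the PTKO label. Fold changes come from limma and are on log2(CPM + 1), which understates the change of low genes, and adjusted p-values are by Benjamini-Hochberg over all tested genes. All 10 genes had AAI libraries wholly above DMSO libraries in fl/fl at 3 weeks, against 60.8% of tested genes, and 9 at 6 weeks, against 63.0%. Under the PTKO label these were 9, against 59.6%, and 6, against 55.6%. In bulk cortex a change in the number of cells of a type and a change in RNA per cell cannot be told apart.

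**Figure D1:**
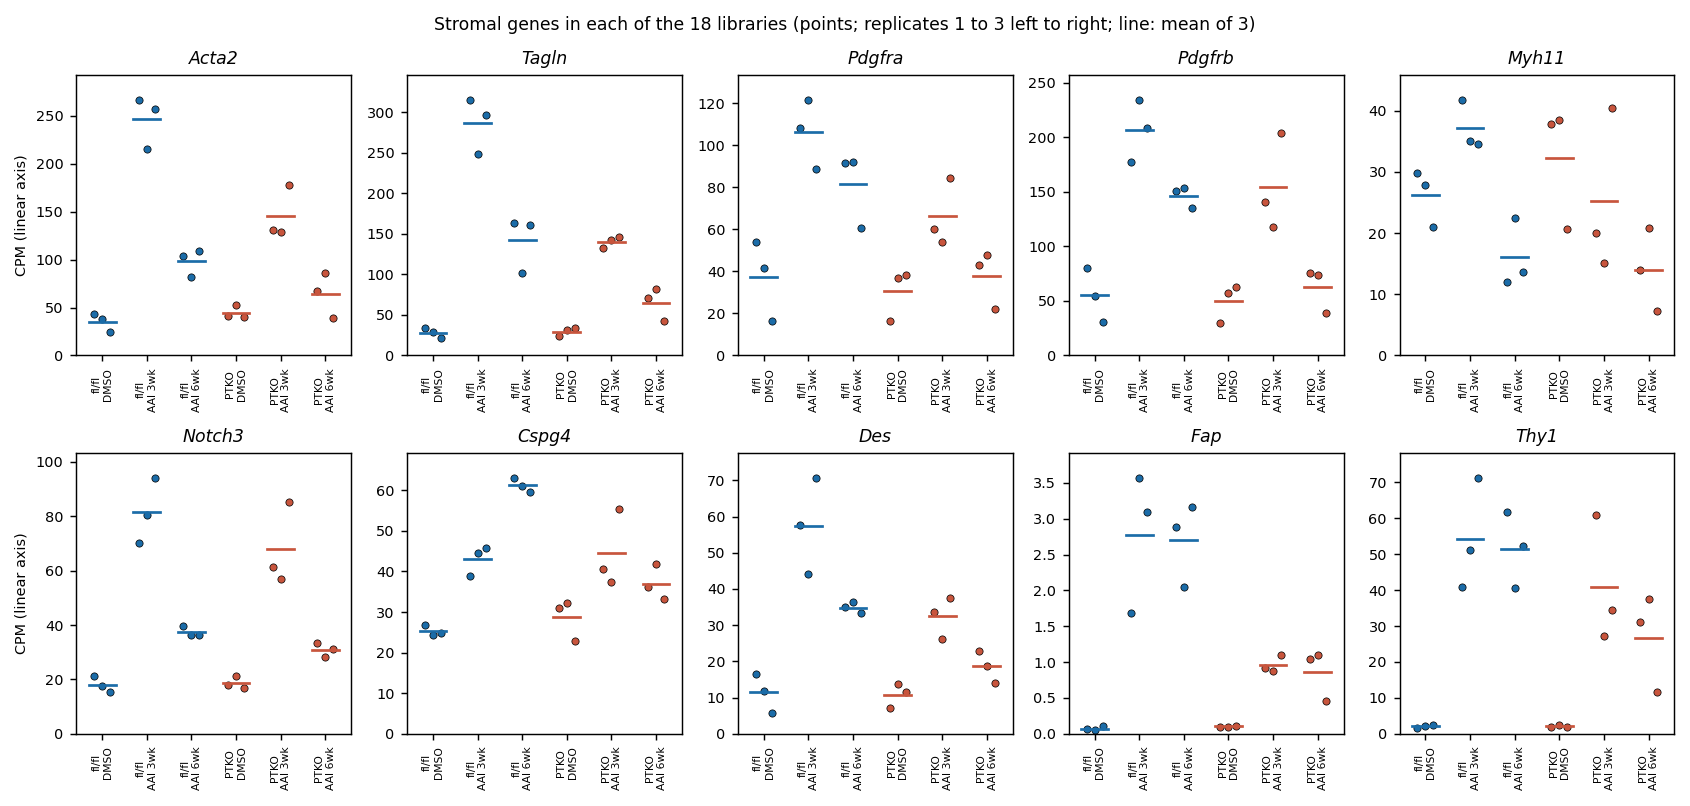
CPM of each of the 10 stromal genes in the 18 libraries, in a panel per gene on a linear axis from 0, with points for libraries and a line at the mean of 3. Acta2 in fl/fl runs from 24.9 to 43.4 CPM under DMSO and from 216 to 267 CPM at 3 weeks, while Myh11 in fl/fl lies lowest at 6 weeks, at 12.0 to 22.5 CPM.

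The genes of the contractile apparatus that mark myofibroblasts rose early. Acta2 encodes smooth muscle actin. Acta2 read 43.4, 37.8 and 24.9 CPM in the fl/fl DMSO libraries, 267, 216 and 257 CPM at 3 weeks of AAI and 103, 81.7 and 109 CPM at 6 weeks. Acta2 under the PTKO label read 41.5, 52.6 and 40.0 CPM with DMSO, 131, 129 and 178 CPM at 3 weeks and 67.5, 85.9 and 38.8 CPM at 6 weeks. All AAI libraries at 3 weeks lay above all DMSO libraries of their genotype, whereas the 6-week libraries labelled PTKO overlapped theirs. The fl/fl mean went from 35.4 ± 9.48 to 246 ± 27.1 CPM (SD, n = 3) at 3 weeks, a log2 fold change of 2.80 (95% CI 2.28 to 3.32, limma adjusted p = 4.40e-08), and stood at 98.2 ± 14.6 CPM at 6 weeks, a log2 fold change of 1.47 (adjusted p = 5.70e-05). For Acta2 under the PTKO label the mean went from 44.7 ± 6.90 to 146 ± 27.5 CPM (SD, n = 3) at 3 weeks, a log2 fold change of 1.68 (95% CI 1.16 to 2.20, limma adjusted p = 1.71e-05). Acta2 at 6 weeks under that label, at 64.1 ± 23.7 CPM, differed from DMSO by 0.45 (adjusted p = 0.118) and was not called. Replicate 3 of that group, at 38.8 CPM, was its lowest, and without it the fold change was 0.77 (adjusted p = 0.00629).

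Tagln encodes transgelin, an actin-binding protein of smooth muscle and myofibroblasts. Tagln read 33.4, 29.4 and 21.8 CPM in the fl/fl DMSO libraries, 315, 248 and 296 CPM at 3 weeks of AAI and 164, 102 and 161 CPM at 6 weeks. Tagln under the PTKO label read 23.4, 31.6 and 33.3 CPM with DMSO, 132, 143 and 146 CPM at 3 weeks and 71.1, 81.8 and 42.0 CPM at 6 weeks. Every AAI group lay above its DMSO group, with the highest values in fl/fl at 3 weeks. The log2 fold change was 3.31 (95% CI 2.83 to 3.80, limma adjusted p = 3.76e-09) in fl/fl at 3 weeks and 2.28 (adjusted p = 3.36e-07) at 6 weeks. In libraries labelled PTKO it was 2.23 (adjusted p = 4.72e-07) at 3 weeks and 1.08 (adjusted p = 0.000763) at 6 weeks. Relative to the median gene these were 2.87, 1.83, 1.81 and 0.72.

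Des encodes desmin, the intermediate filament protein of pericytes, mesangial cells and muscle. Des read 16.5, 11.9 and 5.81 CPM in the fl/fl DMSO libraries, 57.7, 44.0 and 70.5 CPM at 3 weeks of AAI and 34.9, 36.3 and 33.3 CPM at 6 weeks. Des under the PTKO label read 7.24, 13.6 and 11.6 CPM with DMSO, 33.7, 26.2 and 37.4 CPM at 3 weeks and 23.0, 18.8 and 14.1 CPM at 6 weeks. No AAI library overlapped the DMSO libraries of its genotype. Des rose by a log2 fold change of 2.31 (95% CI 1.69 to 2.93, limma adjusted p = 2.49e-06) in fl/fl at 3 weeks and 1.63 (adjusted p = 0.000114) at 6 weeks. For the libraries labelled PTKO the values were 1.53 (adjusted p = 0.000230) at 3 weeks and 0.74 (adjusted p = 0.0349) at 6 weeks. That last call ended under median-of-ratios scaling, at 0.38 (adjusted p = 0.296), with edgeR and DESeq2, with no filter on low values, and without replicate 1 of the PTKO DMSO libraries or replicate 1 or 2 of the 6-week ones. Striated muscle, which also makes desmin, was low: its 8 markers, of which Ckm, Myh1 and Myh4 were at 0 reads in most libraries, summed to 1.07 to 1.33 CPM in fl/fl and 1.05 to 1.51 CPM under the PTKO label with DMSO, 2.95 to 3.32 and 2.09 to 2.67 CPM at 3 weeks and 2.13 to 4.95 and 2.47 to 3.58 CPM at 6 weeks. Tnni2, a troponin, rose by 0.85 (adjusted p = 0.000114) in fl/fl at 3 weeks. Its fl/fl means were 0.0958 CPM with DMSO and 0.988 CPM at 3 weeks, so it was tested largely because of AAI libraries. The part of striated muscle in the Des level was not tested.

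Myh11 encodes smooth muscle myosin heavy chain, made by differentiated vascular smooth muscle. Myh11 read 29.7, 27.8 and 21.0 CPM in the fl/fl DMSO libraries, 41.7, 35.0 and 34.6 CPM at 3 weeks of AAI and 12.0, 22.5 and 13.6 CPM at 6 weeks. Myh11 under the PTKO label read 37.8, 38.5 and 20.7 CPM with DMSO, 20.0, 15.1 and 40.4 CPM at 3 weeks and 14.0, 20.9 and 7.26 CPM at 6 weeks. Only in fl/fl at 3 weeks did all AAI libraries lie above DMSO, and in both genotypes the lowest library was from 6 weeks. Myh11 was not called in fl/fl, with log2 fold changes of 0.50 (95% CI -0.28 to 1.27, limma adjusted p = 0.223) at 3 weeks and -0.71 (95% CI -1.48 to 0.063, limma adjusted p = 0.0893) at 6 weeks. Under median-of-ratios scaling the latter was -1.17 (adjusted p = 0.0127), past the threshold, as it was with edgeR, DESeq2 and without replicate 2 of the fl/fl 6-week libraries. In the libraries labelled PTKO Myh11 was -0.41 (95% CI -1.19 to 0.36, limma adjusted p = 0.319) at 3 weeks, not called, and fell by 1.21 on the log2 scale (95% CI -1.98 to -0.43, limma adjusted p = 0.00883) at 6 weeks, although the ranges of the groups touched, with 20.9 CPM in replicate 2 at 6 weeks and 20.7 CPM in replicate 3 with DMSO. Without replicate 3 of the 6-week libraries the value was -0.83 (adjusted p = 0.0568).

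Acta2 and Tagln were higher relative to Myh11 in the AAI libraries, as read from ratios within a library, which do not depend on how libraries are scaled to each other. Acta2 per Myh11 (CPM over CPM, not corrected for transcript length) was 1.46, 1.36 and 1.19 in the fl/fl DMSO libraries, 6.39, 6.16 and 7.44 at 3 weeks and 8.64, 3.63 and 8.04 at 6 weeks. In libraries labelled PTKO the same ratio was 1.10, 1.37 and 1.93 with DMSO, 6.54, 8.54 and 4.39 at 3 weeks and 4.83, 4.11 and 5.35 at 6 weeks. All 12 AAI libraries lay above all 6 DMSO libraries in this ratio. Tagln per Myh11 behaved alike, with 1.12, 1.06 and 1.04 in fl/fl under DMSO against 7.55, 7.08 and 8.56 at 3 weeks and 13.7, 4.53 and 11.8 at 6 weeks. For the PTKO label it was 0.620, 0.821 and 1.61, then 6.59, 9.42 and 3.61 and 5.09, 3.92 and 5.78. The ratios show that the genes changed unequally, and these ratios were looked at with the fold changes in view.

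**Figure D2:**
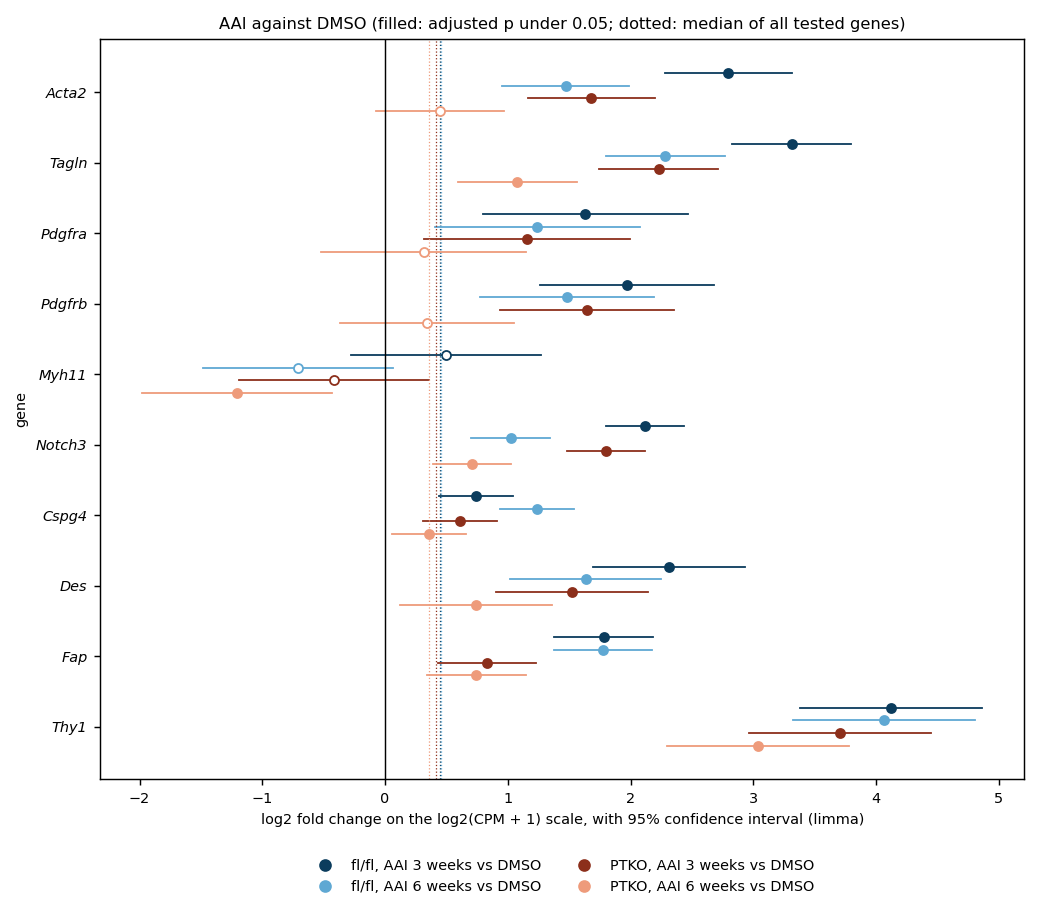
Log2 fold changes of AAI against DMSO with 95% confidence intervals for each gene, at 3 and 6 weeks in fl/fl (blues) and under the PTKO label (reds), filled where the limma adjusted p was under 0.05, with the median of all tested genes dotted. Thy1 lies farthest right, from 3.04 to 4.12, and Myh11 farthest left, from -1.21 to 0.50.

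The PDGF receptors rose in fl/fl at both times and under the PTKO label at 3 weeks, and were not called there at 6 weeks. Pdgfrb, the receptor of pericytes, mesangial cells and myofibroblasts, was measured in every library. Pdgfrb read 80.5, 54.9 and 30.9 CPM in the fl/fl DMSO libraries, 177, 234 and 208 CPM at 3 weeks of AAI and 151, 153 and 135 CPM at 6 weeks. Pdgfrb under the PTKO label read 29.4, 57.1 and 62.9 CPM with DMSO, 141, 117 and 204 CPM at 3 weeks and 75.8, 74.1 and 39.1 CPM at 6 weeks. The fl/fl AAI libraries stood clear of DMSO at both times. Pdgfrb rose by 1.97 (95% CI 1.26 to 2.68, limma adjusted p = 5.58e-05) in fl/fl at 3 weeks and 1.49 (adjusted p = 0.000851) at 6 weeks on the log2 scale, and by 1.64 (adjusted p = 0.000391) under the PTKO label at 3 weeks. At 6 weeks under that label the value was 0.34 (95% CI -0.36 to 1.05, limma adjusted p = 0.375), its groups overlapped, and it was -0.015 relative to the median gene.

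Pdgfra, the receptor that marks interstitial fibroblasts, was close to Pdgfrb in pattern. Pdgfra read 53.8, 41.5 and 16.4 CPM in the fl/fl DMSO libraries, 108, 122 and 88.7 CPM at 3 weeks of AAI and 91.7, 92.0 and 60.7 CPM at 6 weeks. Pdgfra under the PTKO label read 16.4, 37.0 and 38.2 CPM with DMSO, 60.2, 53.9 and 84.7 CPM at 3 weeks and 43.2, 47.9 and 22.2 CPM at 6 weeks. DMSO values spread widely, from replicate 3 of fl/fl and replicate 1 of the PTKO label, both at 16.4 CPM, to 53.8 CPM. Pdgfra rose by 1.63 (95% CI 0.80 to 2.47, limma adjusted p = 0.00137) in fl/fl at 3 weeks, 1.24 (adjusted p = 0.00993) at 6 weeks and 1.16 (adjusted p = 0.0154) under the PTKO label at 3 weeks, and it was 0.32 (adjusted p = 0.492) there at 6 weeks. Of these, the calls in fl/fl at 6 weeks and under the PTKO label at 3 weeks ended under median-of-ratios scaling, at 0.77 (adjusted p = 0.105) and 0.72 (adjusted p = 0.133), and with edgeR and DESeq2. The first also ended without fl/fl DMSO replicate 3, at 0.75 (adjusted p = 0.0710), and the second without PTKO DMSO replicate 1, at 0.77 (adjusted p = 0.0988), or without PTKO replicate 3 at 3 weeks, at 0.97 (adjusted p = 0.0652).

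Notch3, the Notch receptor of pericytes and arterial smooth muscle, rose at 3 weeks and was lower again by 6 weeks. Notch3 read 21.1, 17.7 and 15.4 CPM in the fl/fl DMSO libraries, 70.1, 80.4 and 94.0 CPM at 3 weeks of AAI and 39.7, 36.3 and 36.3 CPM at 6 weeks. Notch3 under the PTKO label read 17.8, 21.1 and 16.8 CPM with DMSO, 61.5, 56.8 and 85.4 CPM at 3 weeks and 33.5, 28.1 and 31.4 CPM at 6 weeks. The groups did not overlap between AAI and DMSO at either time. The log2 fold change was 2.12 (95% CI 1.80 to 2.43, limma adjusted p = 5.02e-09) in fl/fl at 3 weeks and 1.02 (adjusted p = 1.74e-05) at 6 weeks, and 1.80 (adjusted p = 5.61e-08) and 0.71 (adjusted p = 0.000731) under the PTKO label. The last value was 0.33 (adjusted p = 0.0706) under median-of-ratios scaling, and edgeR and DESeq2 did not call it either.

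Cspg4, the gene of the pericyte proteoglycan NG2, had the lowest log2 fold change of the 9 called genes at 3 weeks in both genotypes. Cspg4 read 26.9, 24.4 and 24.9 CPM in the fl/fl DMSO libraries, 38.9, 44.5 and 45.8 CPM at 3 weeks of AAI and 63.0, 61.2 and 59.6 CPM at 6 weeks. Cspg4 under the PTKO label read 31.1, 32.3 and 22.9 CPM with DMSO, 40.7, 37.4 and 55.5 CPM at 3 weeks and 36.1, 41.8 and 33.1 CPM at 6 weeks. The fl/fl libraries were highest at 6 weeks, unlike those of the contractile genes, and the 3 libraries of each fl/fl group lay close together. Cspg4 was higher by 0.74 (95% CI 0.44 to 1.04, limma adjusted p = 0.000196) at 3 weeks and 1.24 (adjusted p = 1.38e-06) at 6 weeks in fl/fl, and by 0.61 (adjusted p = 0.00125) and 0.36 (adjusted p = 0.0353) under the PTKO label. The 3-week values were only 0.29 and 0.19 above the median gene, and neither was called under median-of-ratios scaling, at 0.28 (adjusted p = 0.0933) and 0.17 (adjusted p = 0.326), nor with edgeR or DESeq2. At 6 weeks in libraries labelled PTKO the direction flipped with median-of-ratios scaling, to -0.022 (adjusted p = 0.908), and with DESeq2. That call also ended without replicate 3 of the PTKO DMSO libraries, at 0.21 (adjusted p = 0.197), without replicate 1 or 2 at 6 weeks, at 0.37 (adjusted p = 0.0594) and 0.27 (adjusted p = 0.139), and without both libraries high in adipocyte markers, an alternative chosen after seeing the data, at 0.36 (adjusted p = 0.0773).

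Fap, a surface protease of activated fibroblasts, was almost undetected without AAI. DMSO libraries held 1, 1 and 2 Fap reads in fl/fl and 2 in each library labelled PTKO, while AAI libraries held 24 to 76 reads in fl/fl and 9 to 27 under the PTKO label. Fap read 0.0605, 0.0508 and 0.106 CPM in the fl/fl DMSO libraries, 1.68, 3.56 and 3.10 CPM at 3 weeks of AAI and 2.89, 2.05 and 3.17 CPM at 6 weeks. Fap under the PTKO label read 0.0999, 0.0962 and 0.108 CPM with DMSO, 0.910, 0.882 and 1.09 CPM at 3 weeks and 1.04, 1.10 and 0.460 CPM at 6 weeks. AAI and DMSO libraries did not overlap in either genotype. As a ratio of CPM pooled over libraries, Fap in fl/fl was 37.2 (95% counting interval 14.3 to 138, 192 against 4 reads) at 3 weeks and 37.9 (95% counting interval 14.4 to 141, 123 against 4 reads) at 6 weeks. Under the PTKO label the ratios were 9.49 (95% counting interval 4.16 to 26.7, 74 against 6 reads) and 8.56 (95% counting interval 3.67 to 24.4, 50 against 6 reads). These intervals cover counting error only. On the log2(CPM + 1) scale the changes were 1.78 (adjusted p = 3.82e-07) and 1.78 (adjusted p = 6.51e-07) in fl/fl by limma, and 0.83 (adjusted p = 0.00102) and 0.74 (adjusted p = 0.00296) under the PTKO label. Because Fap was tested only through its AAI libraries, these calls and its lack of overlap with DMSO are partly set by the filter.

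Thy1 encodes the surface glycoprotein CD90, which in the mouse is found on fibroblasts and also on T cells and neurons. Thy1 read 1.63, 2.18 and 2.54 CPM in the fl/fl DMSO libraries, 40.9, 51.1 and 71.1 CPM at 3 weeks of AAI and 61.8, 40.5 and 52.2 CPM at 6 weeks. Thy1 under the PTKO label read 1.85, 2.41 and 1.89 CPM with DMSO, 60.9, 27.3 and 34.4 CPM at 3 weeks and 31.0, 37.6 and 11.6 CPM at 6 weeks. Every AAI library stood far above every DMSO library, and replicate 3 of the PTKO label at 6 weeks was the lowest of the AAI libraries. Thy1 rose by 4.12 (95% CI 3.38 to 4.87, limma adjusted p = 3.15e-08) and 4.06 (adjusted p = 6.71e-08) in fl/fl at 3 and 6 weeks, and by 3.70 (adjusted p = 1.90e-07) and 3.04 (adjusted p = 2.79e-06) under the PTKO label. T cell markers moved with it. Of 8 listed, 7 were analysed here, none was at 0 in any library, and all 7 rose in each of the 4 comparisons, with Cd3g up by 3.64 (adjusted p = 1.95e-07), Cd4 by 4.10 (adjusted p = 2.27e-07) and Lck by 3.66 (adjusted p = 3.05e-07) in fl/fl at 3 weeks. Under DMSO the means of Cd3d, Cd3g, Cd3e, Cd2 and Cd4 were low, at 0.144 to 0.798 CPM in fl/fl and 0.258 to 0.485 CPM under the PTKO label. These genes were tested largely because of their AAI libraries, so the count that rose is partly set by the filter. The summed level of the 7 was 3.33 to 5.28 CPM in fl/fl and 4.40 to 4.90 CPM under the PTKO label with DMSO, 89.5 to 169 and 55.7 to 167 CPM at 3 weeks, and 82.0 to 137 and 27.6 to 85.4 CPM at 6 weeks.

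Within groups, Thy1 also followed the T cell markers from library to library. The deviation of Thy1 from its group mean correlated with that of the summed T cell list at r = 0.960 (Pearson, 18 libraries, across log2 values, given as a description), and with that of the summed activated fibroblast list at 0.620. For the other 9 genes the correlation with the T cell list ran from 0.0459 to 0.486. Macrophage markers also moved with Thy1, at 0.913, and with Fap, at 0.716, where Fap with the activated fibroblast list was at 0.551. For the remaining stromal genes the correlation with the macrophage list ran from -0.0556 for Pdgfra to 0.362 for Cspg4. Of 8 macrophage markers listed, 7 were analysed here, and all 7 rose in each AAI comparison. Their sum was 114 to 162 CPM in fl/fl and 107 to 132 CPM under the PTKO label with DMSO, 2702 to 4368 and 1059 to 2066 CPM at 3 weeks and 1504 to 2469 and 717 to 1390.1 CPM at 6 weeks. The part of T cells or macrophages in the Thy1 and Fap signals was not tested.

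**Figure D3:**
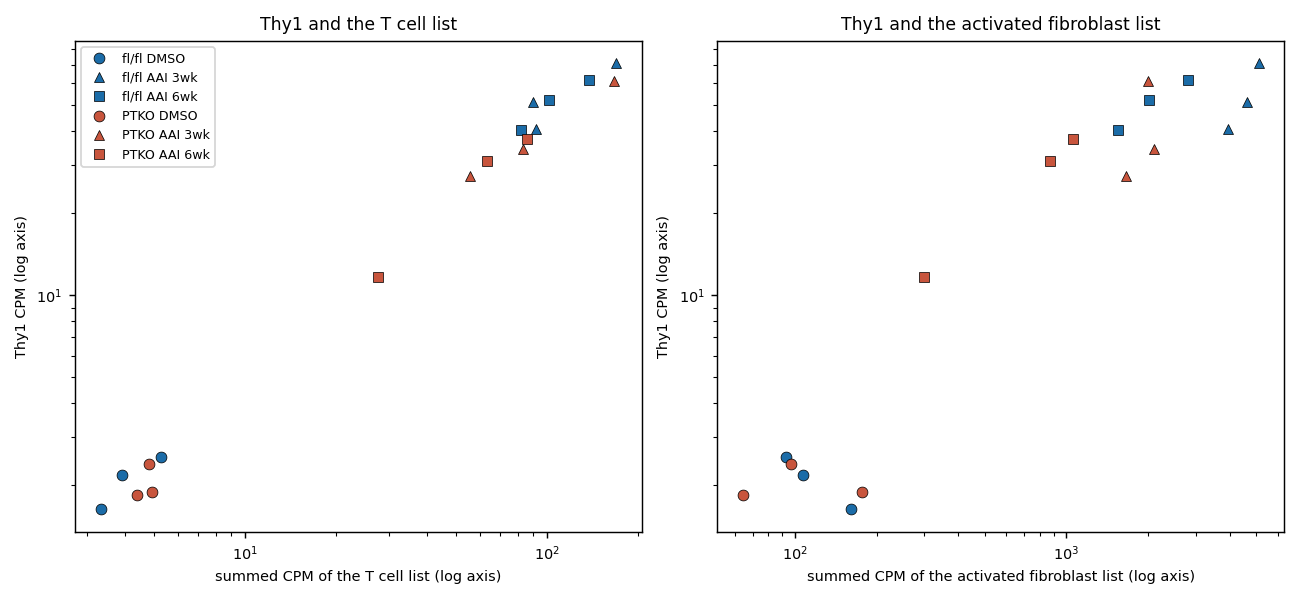
Thy1 CPM against the summed CPM of the T cell list (left) and of the activated fibroblast list (right) in the 18 libraries, all axes logarithmic, with blue for fl/fl, red for the PTKO label and shapes for treatment. The AAI libraries span 27.6 to 169 CPM of T cell markers.

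After the 3 weeks of remodeling, Acta2, Tagln, Myh11 and Notch3 in fl/fl were lower than at the end of AAI, while Pdgfra, Pdgfrb, Des, Fap and Thy1 were not called. From 3 to 6 weeks in fl/fl, 4 of the 10 genes fell, when 6.07% of tested genes fell, and 1 rose, when 7.16% rose. Acta2 fell by 1.32 on the log2 scale (limma adjusted p = 0.00373), Tagln fell by 1.03 (adjusted p = 0.0101), Notch3 fell by 1.09 (adjusted p = 0.000746) and Myh11 fell by 1.21 (adjusted p = 0.0397). Cspg4 rose by 0.50 (adjusted p = 0.0313). Fap and Thy1 did not pass the test, with differences of -0.0063 (95% CI -0.41 to 0.40, limma adjusted p = 0.988) and -0.061 (95% CI -0.80 to 0.68, limma adjusted p = 0.928). Des was -0.68 (95% CI -1.30 to -0.061, limma adjusted p = 0.132). Pdgfrb was not called in fl/fl, although its libraries lay at 135 to 153 CPM at 6 weeks, below the 177 to 234 CPM of 3 weeks. Estimates were below 0 in 9 of the 10 genes, all but Cspg4. In 6 genes the 6-week libraries lay wholly below the 3-week ones, against 15.6% of tested genes, and in Cspg4 wholly above, against 16.6%. The Cspg4 call ended whenever any 1 of the 6 libraries was left out, at values from 0.43 to 0.55, and that of Myh11 in 5 of these 6, with edgeR and with no filter. The Tagln call ended without fl/fl 6-week replicate 2, at -0.81 (adjusted p = 0.0610).

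Under the PTKO label the same step lowered 4 of the 10 genes, against 8.26% of all tested genes, and raised none, against 2.92%. Acta2 fell by 1.23 (adjusted p = 0.00686), Tagln fell by 1.15 (adjusted p = 0.00701), Pdgfrb fell by 1.30 (adjusted p = 0.0237) and Notch3 fell by 1.09 (adjusted p = 0.00135) on the log2 scale. All 10 estimates were below 0, from -1.30 for Pdgfrb to -0.088 for Fap. In 6 of the 10 genes the 6-week libraries lay wholly below the 3-week ones, against 19.6% of all tested genes. The Pdgfrb call ended without PTKO 3-week replicate 1, at -1.34 (adjusted p = 0.0632), without 3-week replicate 3, at -1.08 (adjusted p = 0.0973), and without 6-week replicate 3, at -0.99 (adjusted p = 0.0793).

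Between genotypes the stromal genes did not differ beyond their spread under DMSO, and several were lower under the PTKO label after AAI. With DMSO none of the 10 was called by limma, when 0.192% of tested genes were called higher and 0.0959% lower, and the groups overlapped in all 10, against 7.04% of tested genes wholly above and 9.44% wholly below. Estimates ran from -0.21 for Pdgfra to 0.36 for Acta2, with intervals as wide as -1.05 to 0.62 for Pdgfra and as narrow as -0.14 to 0.46 for Cspg4. With DMSO edgeR and DESeq2 also called none of the 10.

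After 3 weeks of AAI, 3 of the 10 genes were lower under the PTKO label, against 8.0% of all tested genes, and none was higher, against 6.22%. Tagln was lower, at a log2 difference of -1.02 (95% CI -1.51 to -0.53, limma adjusted p = 0.0111), with means of 140.2 ± 7.31 against 286 ± 34.6 CPM (SD, n = 3). Fap was lower, at a log2 difference of -0.91 (adjusted p = 0.00796), at 0.962 ± 0.115 against 2.78 ± 0.981 CPM. Acta2 was lower, at a log2 difference of -0.76 (adjusted p = 0.0487), at 146 ± 27.5 against 246 ± 27.1 CPM. In these genes, Pdgfra and Des, all libraries labelled PTKO lay below all fl/fl libraries, 5 of 10 against 19.3% of all tested genes. Des was -0.79 (95% CI -1.41 to -0.17, limma adjusted p = 0.0797) and Cspg4 was 0.030 (95% CI -0.27 to 0.33, limma adjusted p = 0.913). The Acta2 call ended in 11 of its 12 alternatives, with adjusted p from 0.0359 to 0.179 over all of them, that of Tagln without fl/fl replicate 3 or PTKO replicate 2, at adjusted p = 0.0589 and 0.0532, and that of Fap without fl/fl replicate 3, at adjusted p = 0.0516. Without fl/fl replicate 3 none of the 10 was called.

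At 6 weeks, 5 of the 10 genes were lower under the PTKO label, against 11.8% of tested genes, and none higher, against 3.27%. Pdgfrb was lower, at a log2 difference of -1.26 (95% CI -1.97 to -0.55, limma adjusted p = 0.0220), at 63.0 ± 20.7 against 146 ± 9.61 CPM (SD, n = 3), and Tagln at -1.14 (adjusted p = 0.00652), at 65.0 ± 20.6 against 142 ± 34.9 CPM. Fap was lower, at a log2 difference of -0.99 (adjusted p = 0.00493), Cspg4 at -0.72 (adjusted p = 0.00601) and Des at -0.90 (adjusted p = 0.0492). Thy1, at -1.05 (95% CI -1.79 to -0.31, limma adjusted p = 0.0531), Pdgfra, at -1.14 (95% CI -1.97 to -0.30, limma adjusted p = 0.0620), and Acta2, at -0.67 (95% CI -1.19 to -0.15, limma adjusted p = 0.0741), did not pass. In 8 of the 10 genes, all but Acta2 and Myh11, the groups did not overlap, against 21.1% of all tested genes.

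Of the 6-week calls, that of Des ended in every alternative that was run, with adjusted p from 0.0592 to 0.144. The Pdgfrb call ended with edgeR, at -1.07 (adjusted p = 0.0556), without fl/fl replicate 1 or 3, at adjusted p = 0.0886 and 0.0580, and without PTKO replicate 3, at -0.95 (adjusted p = 0.0736). Acta2 and Thy1 passed without PTKO replicate 2, the library high in adipocyte markers, at -0.91 (adjusted p = 0.0258) and -1.37 (adjusted p = 0.0246), and without fl/fl replicate 2, at -0.79 (adjusted p = 0.0438) and -1.21 (adjusted p = 0.0349). The calls of Tagln, Cspg4 and Fap held in each alternative that was run.

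**Figure D4:**
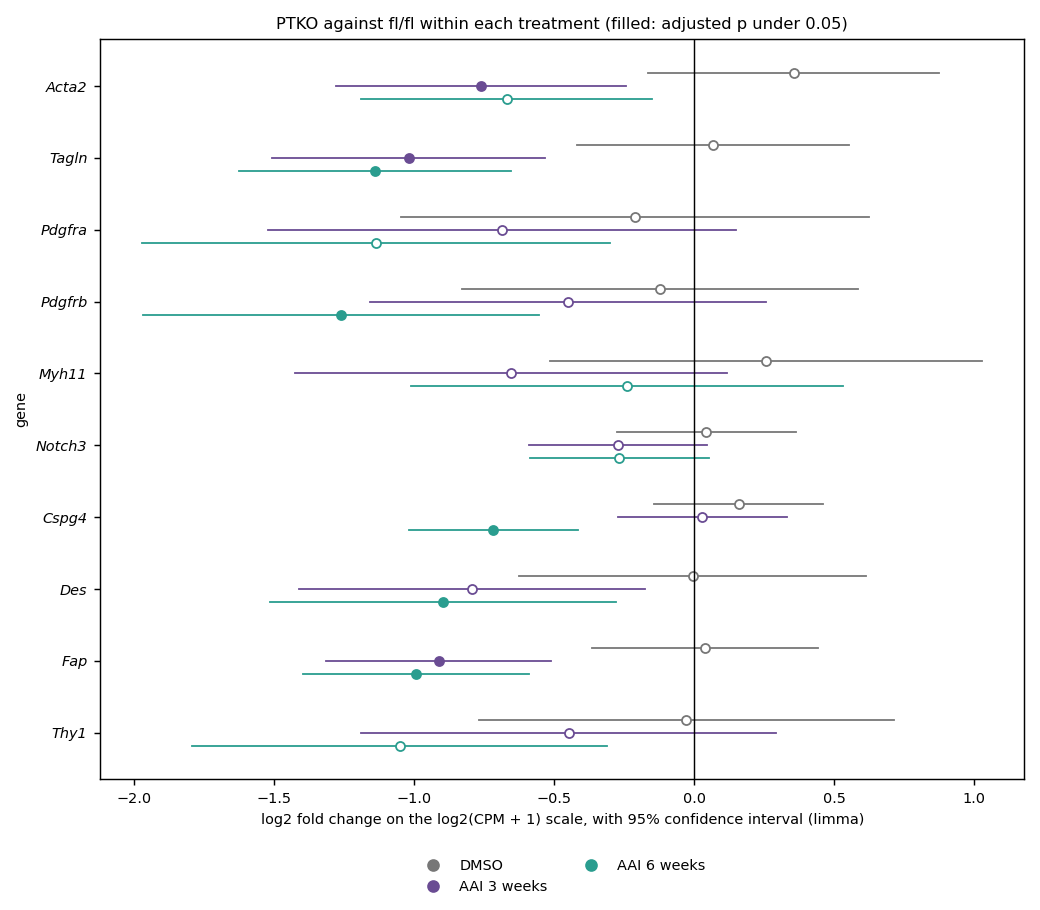
Log2 difference between the PTKO label and fl/fl with 95% confidence intervals for each gene under DMSO (grey), at 3 weeks (purple) and at 6 weeks (green), filled where the limma adjusted p was under 0.05. Every grey interval crosses 0, and at 6 weeks all 10 estimates lie below 0, from -1.26 to -0.24.

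Whether AAI changed a gene by a different amount in the 2 genotypes was tested by the interaction, which none of the 10 genes passed at either time. At 3 weeks 0.164% of tested genes were called higher and 0.116% lower for the interaction, and at 6 weeks 0.0274% and 0.0411%. All 10 estimates were below 0 at both times, except that Pdgfra and Pdgfrb turned above 0 at 3 weeks without fl/fl DMSO replicate 3. The medians were -0.63 and -0.97 beside -0.023 and -0.084 for all tested genes. The lowest adjusted p-values at 3 weeks were those of Fap, at -0.95 (95% CI -1.52 to -0.38, limma adjusted p = 0.0894), Tagln, at -1.09 (95% CI -1.77 to -0.40, limma adjusted p = 0.102), and Acta2, at -1.12 (95% CI -1.85 to -0.38, limma adjusted p = 0.112). At 6 weeks they were those of Cspg4, at -0.88 (95% CI -1.30 to -0.45, limma adjusted p = 0.115), Fap, at -1.03 (95% CI -1.60 to -0.46, limma adjusted p = 0.162), and Tagln, at -1.21 (95% CI -1.89 to -0.52, limma adjusted p = 0.173). In alternatives, DESeq2 called Tagln at 3 weeks, at -1.08 (adjusted p = 0.0410), and leaving out fl/fl 3-week replicate 1 brought in Fap, at -1.18 (adjusted p = 0.0324). Leaving out fl/fl 6-week replicate 2 brought in Fap and Tagln at 6 weeks, at -1.17 (adjusted p = 0.0492) and -1.43 (adjusted p = 0.0455). With edgeR none of the 10 was called for the interaction at either time.

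Within groups, the stromal genes tended to be high or low in the same libraries. All 45 pairs of the 10 genes had a positive correlation of their deviations from the 6 group means over the 18 libraries, with a median r of 0.413 and a range of 0.0517 to 0.946. The pair with the highest was Pdgfra with Pdgfrb, at 0.946, followed by Acta2 with Tagln, at 0.859, Pdgfrb with Des, at 0.838, Pdgfra with Des, at 0.802, and Myh11 with Cspg4, at 0.776. All points share their library, so its depth and tissue make-up enter every gene, and no p is given. Over the levels of all 18 libraries the median r was 0.833, but Myh11 stood apart, with r from -0.190 with Thy1 to 0.284 with Acta2.

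Single libraries stood apart across many of the genes. Replicate 3 of the PTKO label at 6 weeks lay below its group mean in 9 of the 10 genes, with a median deviation of -0.59 (log2), and it was lowest for Thy1, at -0.99. Only Notch3 was not below, at 0.020. Replicate 3 of fl/fl under DMSO lay below in 8, with Pdgfra at -0.98, Des at -0.76 and Pdgfrb at -0.72. Replicate 1 of the PTKO label under DMSO also lay below in 8, with Pdgfra at -0.76 and Pdgfrb at -0.67, although Myh11 was above there, at 0.27. Replicate 3 of the PTKO label at 3 weeks lay above in 9, with Myh11 at 0.78.

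**Figure D5:**
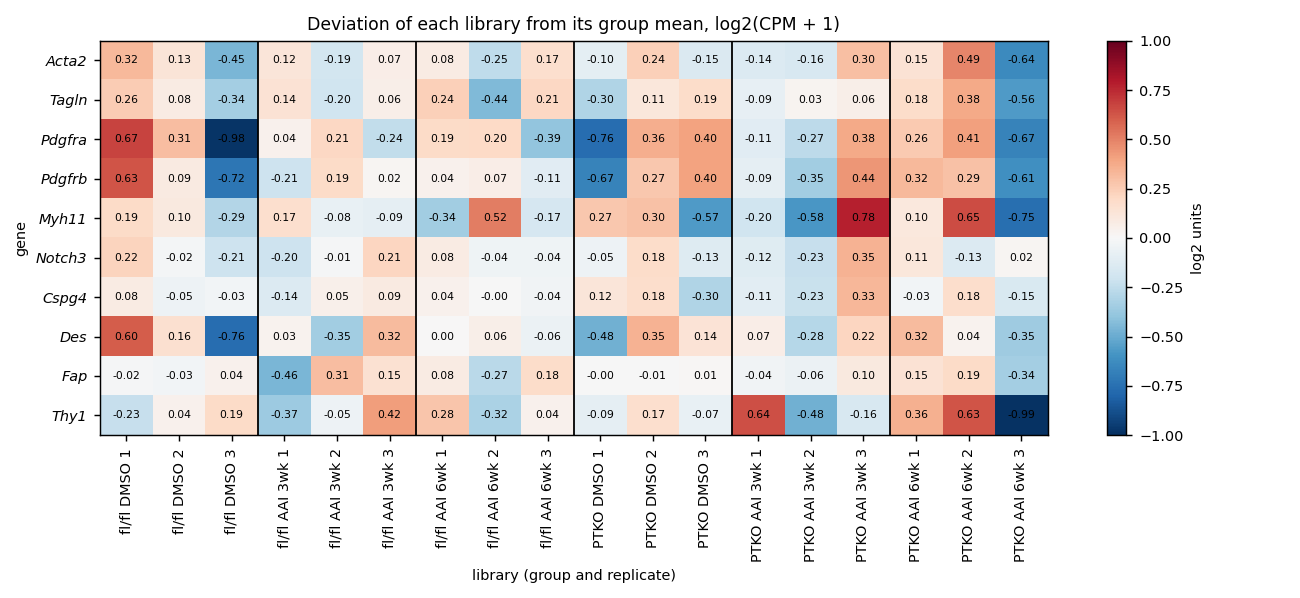
Deviation of each library from the mean of its group on the log2(CPM + 1) scale, with a row per gene, a column per library and black lines between groups, red above and blue below the mean. The column of PTKO AAI 6wk replicate 3 is blue in all genes but Notch3, with values down to -0.99.

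Around these genes, other members of each pathway were read from lists chosen by function. Of 13 tested genes of the contractile apparatus besides the 4 above, 11 were higher in fl/fl at 3 weeks and 8 at 6 weeks, and 9 and 4 under the PTKO label, with none lower. Over all tested genes 58.0%, 59.8%, 57.2% and 53.7% were higher, the background for the counts of each list. The list medians were 1.30, 0.74, 0.95 and 0.20, beside 0.45, 0.45, 0.42 and 0.36 for all tested genes. After median-of-ratios scaling the counts were 9, 5, 5 and 3 higher, with 3 lower in the last. Tpm1, a tropomyosin that winds along actin, rose from 82.3 ± 5.95 to 470.1 ± 19.7 CPM (SD, n = 3) in fl/fl at 3 weeks, by 2.50 (95% CI 2.25 to 2.75, limma adjusted p = 1.16e-10), and was lower under the PTKO label than in fl/fl at both times, at -0.42 (adjusted p = 0.0270) and -0.51 (adjusted p = 0.0132). Tpm2, the tropomyosin of smooth muscle, went from 11.6 ± 3.87 to 55.7 ± 7.06 and then 22.1 ± 3.28 CPM, a rise of 2.20 (adjusted p = 3.76e-08) and a change of -1.29 (adjusted p = 0.00104) from 3 to 6 weeks. Cald1, caldesmon, rose by 2.58 (adjusted p = 1.28e-07) and 2.32 (adjusted p = 7.20e-07) at 3 weeks in fl/fl and under the PTKO label. Cnn1, calponin, rose by 1.82 (adjusted p = 0.000196) in fl/fl at 3 weeks and was 0.20 (adjusted p = 0.638) under the PTKO label at 6 weeks. From 3 to 6 weeks 7 genes of the list fell under the PTKO label, against 8.26% of all tested genes. In fl/fl 1 fell, against 6.07%, and the difference between these counts was not tested.

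Pericyte and mural cell genes outside the 10 moved in both directions. Of 10 tested, 6 rose and 3 fell in fl/fl at 3 weeks, 6 rose and 3 fell in fl/fl at 6 weeks, 5 rose and 2 fell under the PTKO label at 3 weeks, and 3 rose and 1 fell under the PTKO label at 6 weeks. In the same order 58.0%, 59.8%, 57.2% and 53.7% of all tested genes were higher and 18.2%, 13.9%, 13.9% and 11.4% lower, so the shares that rose lay near or below those of all genes, and the list medians were 0.62, 0.62, 0.42 and 0.16. After median-of-ratios scaling those higher numbered 3, 4, 3 and 3 and those lower 4, 3, 3 and 2. Abcc9 and Kcnj8 encode the subunits of the potassium channel of pericytes. Abcc9 fell from 30.4 ± 1.43 to 7.33 ± 1.06 CPM (SD, n = 3) in fl/fl at 3 weeks, at a log2 fold change of -1.92 (95% CI -2.52 to -1.33, limma adjusted p = 1.24e-05), and fell under the PTKO label at 3 weeks, at -0.99 (adjusted p = 0.00517). Mcam, the adhesion protein CD146 of pericytes and endothelium, rose from 21.6 ± 0.413 to 80.2 ± 4.13 CPM, by 1.84 (adjusted p = 9.11e-10), and fell again from 3 to 6 weeks in both genotypes, at -0.62 (adjusted p = 0.00288) in fl/fl and -0.78 (adjusted p = 0.00135) under the PTKO label. Gata3, a transcription factor of mesangial cells and collecting duct, rose by 1.06 (adjusted p = 1.34e-06) at 3 weeks. Rgs5, a signaling regulator much used as a pericyte marker, was 0.62 (adjusted p = 0.0486) in fl/fl at 3 weeks and 0.20 (adjusted p = 0.515) under the PTKO label, and relative to the median gene it was 0.18 and -0.21.

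Fibroblast genes rose nearly throughout. Of 14 tested genes of resident fibroblasts, 11 rose and 0 fell in fl/fl at 3 weeks, 12 rose and 0 fell in fl/fl at 6 weeks, 10 rose and 1 fell under the PTKO label at 3 weeks, and 11 rose and 0 fell under the PTKO label at 6 weeks, with medians of 1.58, 1.53, 1.38 and 0.97. After median-of-ratios scaling those higher numbered 11, 10, 9 and 7 and those lower 0, 0, 1 and 1. Pdpn, podoplanin, rose from 4.92 ± 0.522 to 71.0 ± 12.2 CPM (SD, n = 3) in fl/fl at 3 weeks, by 3.59 (95% CI 3.20 to 3.99, limma adjusted p = 2.28e-10), and under the PTKO label by 2.53 (adjusted p = 1.52e-08) at 3 weeks and 2.16 (adjusted p = 1.52e-07) at 6 weeks. Its interaction at 6 weeks was called, at -1.59 (adjusted p = 0.0399), and it was the only such call among the listed genes at either time. Pdpn is also made by podocytes. Col15a1, a basement membrane collagen, rose by 3.64 (adjusted p = 8.73e-07) and 2.91 (adjusted p = 1.48e-05) at 3 weeks in fl/fl and under the PTKO label, and Cd34, also an endothelial gene, by 1.82 (adjusted p = 2.84e-08) and 1.74 (adjusted p = 9.65e-08). Of 13 tested genes of activated fibroblasts, 12 rose and 1 fell in fl/fl at 3 weeks, 12 rose and 1 fell in fl/fl at 6 weeks, 12 rose and 1 fell under the PTKO label at 3 weeks, and 11 rose and 1 fell under the PTKO label at 6 weeks, with medians of 3.81, 3.14, 3.31 and 2.29, and the gene that fell each time was Lrrc15, chosen here after its values were seen. Postn, the matrix protein periostin, went from 0.814 ± 0.266 to 24.3 ± 3.10 and 13.6 ± 6.71 CPM in fl/fl, by 3.81 (adjusted p = 4.95e-08) and 2.91 (adjusted p = 1.47e-06), and rose under the PTKO label by 2.66 (adjusted p = 4.14e-06) and 1.81 (adjusted p = 0.000257). In fl/fl Postn met the level needed for testing mainly through its AAI libraries. Tnc, tenascin C, rose by 4.88 (adjusted p = 5.05e-10), Runx1, a transcription factor also of blood cells, by 4.34 (adjusted p = 1.63e-10), and Ncam1, a neural adhesion protein, by 3.21 (adjusted p = 1.07e-09) in fl/fl at 3 weeks.

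Between genotypes 2 genes of the activated fibroblast list were lower under the PTKO label at 3 weeks and 9 at 6 weeks, and none was higher. Their median difference was -0.70 and -1.29, beside -0.042 and -0.11 for all tested genes. With edgeR the 6-week count was 5 and with DESeq2 7. At 6 weeks Tnc was lower, at a log2 difference of -1.48 (adjusted p = 0.00435) and Runx1 at -0.67 (adjusted p = 0.0465), the latter not past the threshold under median-of-ratios scaling, at -0.56 (adjusted p = 0.0883), while Postn was -0.95 (adjusted p = 0.0667). Of the 14 genes of the resident fibroblast list 5 were lower and 1 higher at 6 weeks, against 2 lower and 1 higher after median-of-ratios scaling, with Pdpn lower at -1.81 (adjusted p = 5.38e-05). Of the 12 genes of the Notch list 3 were lower at 6 weeks, and of the SRF list and the PDGF ligands none. Macrophage markers moved the same way, with 7 of 7 lower at 3 weeks and 3 of 7 at 6 weeks. Of the 7 T cell genes none was called at either time, but at 6 weeks all 7 estimates were below 0, from -1.13 for Cd8a (limma adjusted p = 0.0675, the lowest of the list) to -0.75 for Cd2, with a median of -0.87 beside -0.94 for the 10 stromal genes. At 3 weeks the T cell median was -0.26. The part of macrophages or T cells in the genotype difference of the stromal genes was not tested. Of 8 endothelial genes none was called between genotypes by limma at any time.

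Among ligands of the PDGF receptors, 3 of 4 rose in each AAI comparison and Pdgfc was not called, with list medians of 1.28, 1.47, 1.33 and 1.17. Pdgfb, made by endothelium and macrophages, went from 26.1 ± 1.30 CPM under DMSO to 114 ± 21.9 at 3 weeks and 127 ± 32.4 CPM at 6 weeks in fl/fl (SD, n = 3), by limma 2.06 (adjusted p = 6.62e-08) and 2.20 (adjusted p = 5.99e-08). In libraries labelled PTKO it went from 27.5 ± 1.77 to 101 ± 20.3 and 84.1 ± 13.6 CPM, by 1.83 (adjusted p = 4.53e-07) and 1.57 (adjusted p = 4.04e-06). Pdgfa, the ligand of Pdgfra, rose by 1.96 (adjusted p = 3.78e-08) in fl/fl and 1.47 (adjusted p = 1.46e-06) under the PTKO label at 3 weeks. Pdgfd, a ligand of Pdgfrb, rose by 0.61 (adjusted p = 0.000946) and 1.19 (adjusted p = 1.95e-06), of which the fl/fl call ended under median-of-ratios scaling, at 0.17 (adjusted p = 0.247). None was called between genotypes, and the ligands stayed up at 6 weeks under the PTKO label, where Pdgfra and Pdgfrb were not called against DMSO.

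In the Notch pathway, of 12 tested genes besides Notch3, 9 rose and 0 fell in fl/fl at 3 weeks, 9 rose and 1 fell in fl/fl at 6 weeks, 8 rose and 0 fell under the PTKO label at 3 weeks, and 8 rose and 1 fell under the PTKO label at 6 weeks, with medians of 0.89, 0.65, 0.88 and 0.51. Over all tested genes 58.0%, 59.8%, 57.2% and 53.7% were higher and 18.2%, 13.9%, 13.9% and 11.4% lower in these comparisons, not far below the shares of the list that rose. After median-of-ratios scaling those higher numbered 7, 5, 7 and 4 and those lower 1, 3, 2 and 2. Jag1, a Notch ligand, rose from 23.2 ± 4.12 to 92.5 ± 11.9 CPM (SD, n = 3) in fl/fl at 3 weeks, by 1.96 (95% CI 1.68 to 2.24, limma adjusted p = 2.98e-09), and by 2.39 (adjusted p = 9.89e-10) under the PTKO label. Heyl, a target gene of Notch3 in mural cells, read 7.21 ± 0.711, 28.9 ± 4.26 and 31.4 ± 2.0 CPM in fl/fl with DMSO and at 3 and 6 weeks, and 7.19 ± 2.78, 23.7 ± 3.01 and 14.8 ± 5.59 CPM under the PTKO label. It rose by 1.86 (adjusted p = 2.14e-06) and 1.98 (adjusted p = 1.63e-06) in fl/fl, so that it was still high at 6 weeks, when Notch3 had fallen from its 3-week level. From 3 to 6 weeks Heyl was 0.12 (adjusted p = 0.754) in fl/fl. Heyl was lower under the PTKO label at 6 weeks, at -1.09 (adjusted p = 0.00832). Notch2, a related receptor, rose by 1.04 (adjusted p = 2.67e-06) in fl/fl at 3 weeks.

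Of 12 tested regulators and targets around SRF, 10, 10, 11 and 10 were higher in the 4 comparisons and none lower, against 9, 8, 8 and 7 higher after median-of-ratios scaling. The medians were 1.31, 1.09, 1.20 and 0.97. Srf itself went from 36.3 ± 2.18 to 74.2 ± 15.2 CPM (SD, n = 3) in fl/fl at 3 weeks, by 1.0 (adjusted p = 3.56e-06), and by 0.77 (adjusted p = 7.50e-05) under the PTKO label. Mkl1, the MRTF-A cofactor, rose by 1.84 (adjusted p = 1.50e-08) and 1.43 (adjusted p = 4.08e-07). Myocd, the smooth muscle cofactor, read 0.406 ± 0.312, 1.58 ± 0.169 and 0.507 ± 0.385 CPM in fl/fl with DMSO and at 3 and 6 weeks, a rise of 0.90 (adjusted p = 0.00154) at 3 weeks and a change of -0.80 (adjusted p = 0.0272) from 3 to 6 weeks. In fl/fl Myocd met the level needed for testing through its 3-week libraries, so both calls may be partly set by the filter. Ankrd1, a target of YAP, rose by 4.76 (adjusted p = 1.63e-10) in fl/fl and 5.73 (adjusted p = 5.91e-11) under the PTKO label at 3 weeks, and Vcl, vinculin, by 1.61 (adjusted p = 1.22e-07) and 1.46 (adjusted p = 6.54e-07).

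SRF binds the CArG box, a short palindromic element, and its own promoter is shown here because Srf rose with the contractile genes and its promoter holds the element. The stretch is 100 to 41 bases before the RefSeq start of Srf (GRCm38.p6, chr17:46556203-46556262, minus strand), written 5′ to 3′ with the 2 CArG boxes in capitals.
Srf promoter: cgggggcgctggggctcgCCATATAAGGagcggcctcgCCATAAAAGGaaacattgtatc
Windows of 300 bases, from 250 before to 50 after a RefSeq start, were searched on both strands for the strict CArG box. This is CCWWWWWWGG, with W for A or T, and forms with another base in the core were not searched. The strict box was in 535 of 32851 windows of all genes (1.63%). It was in none of the 5 windows at hand for the 10 stromal genes, those of Acta2, Des, Notch3, Cspg4 and Pdgfra. A match is a description of the letters, and its absence says only that these letters are not in these windows.

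Genes other than the 10 whose levels followed each stromal gene over the 18 libraries were named by the highest Pearson r of log2(CPM + 1), as a description. For Acta2 they were Kcnmb1 (0.980), Tpm2 (0.969) and Ska3 (0.964). Tagln had Loxl2 (0.990), Tmem45a (0.986) and Il33 (0.986), of which Loxl2 and Tmem45a were also first when deviations within groups were compared. Des had Cd248 (0.983), Cyp1b1 (0.975) and Rcn3 (0.975), and Fap had Itgb5 (0.980), Ccl3 (0.978) and Mfap5 (0.972). Pdgfra and Pdgfrb shared Cyp1b1 and Slfn5, with Cyp1b1 (0.976), Egflam (0.957) and Slfn5 (0.951) for Pdgfra and Cyp1b1 (0.982), Slfn5 (0.972) and Nrp2 (0.970) for Pdgfrb. Notch3 had Mcam (0.961), Vcan (0.959) and Gpr107 (0.958), and Cspg4 had Ago4 (0.935), Dmpk (0.930) and Zfp143 (0.916). Myh11 followed other genes than the rest, at lower r, with Olfr558 (0.885), P2rx1 (0.884) and Kcna5 (0.855). Thy1 had Cd3g (0.996), Cd4 (0.996) and Cd74 (0.994), of which Cd3g and Cd4 are T cell genes and Cd74 is a gene of antigen presentation. Compared within groups, the nearest genes were Cyp1b1 (0.970), Fbln5 (0.957) and Ddr2 (0.956) for Pdgfra and Emilin1 (0.977), Ddr2 (0.971) and Egflam (0.968) for Pdgfrb, of which Fbln5 and Emilin1 encode proteins of elastic fibres and Ddr2 a collagen receptor. They were Il2rg (0.972), Cd4 (0.964) and Il2rb (0.963) for Thy1, which include the receptor chains of interleukin 2.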

How the data were processed

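Total RNA of mouse kidney cortex was prepared with a stranded kit and sequenced in 18 libraries, per the labels' protocols. Tools named in the submitters' processing notes are bcl2fastq 2.19 and kallisto, and the build named there is mm10. How transcripts were summed to genes is not given in the sources used here. The authors deposited CPM per gene, reads divided by the library total and multiplied by a constant. All 433116 values tested, 100% of the table, were whole reads within 0.01 read when multiplied by the depth their steps imply, so reads were recovered for count tests as an alternative.

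Values were tested as log2(CPM + 1) with limma 3.58.1 (R 4.3.3) in one fit of 6 group means over 18 libraries with a mean-variance trend, and p-values were adjusted by Benjamini-Hochberg over the 14604 genes that reached 1 CPM in 3 or more libraries. A gene was called at an adjusted p under 0.05. The fit was tested on simulated data. The 11 comparisons were AAI against DMSO at each time in each genotype, 6 against 3 weeks in each, PTKO against fl/fl in each of 3 treatments, and, at either time, the interaction of genotype and AAI. Depth was 11722625 to 27213219 reads per library, and counting intervals cover counting error only.

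The 10 genes, and the lists of related genes and of markers of other cells, were chosen with earlier results of these data known. Named genes were the 10, a few regulators, ligands and markers of each pathway fixed by name, the 3 genes per list with the lowest adjusted p in fl/fl at 3 weeks, and the 3 genes with the highest Pearson r to each of the 10. Alternatives were a pseudocount of 0.1, no filter, median-of-ratios scaling, edgeR 4.0.16 and DESeq2 1.42.0 on recovered reads, a replicate block, and leaving out each library. Leaving out both libraries high in adipocyte markers was chosen after seeing the data. A gene that the rule for named genes gives is not reported here.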

Additional observations from a re-analysis of the deposited data

How the results depend on the processing

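The 9, 9 and 9 stromal genes called higher with AAI in fl/fl at 3 and 6 weeks and under the PTKO label at 3 weeks stayed within 1.5 times under every alternative that was run, and Acta2, Tagln, Des, Notch3, Pdgfrb, Fap and Thy1 kept each of those calls. Counts over all genes moved with the scaling. Genes called higher and lower in the 4 AAI comparisons (fl/fl at 3 and 6 weeks, then PTKO) were 5350 and 4998, 4996 and 4712, 4798 and 4572 and 4201 and 4204 after median-of-ratios scaling, 5270 and 5091, 4961 and 4662, 4938 and 4478 and 4510 and 3867 with edgeR and 5382 and 5025, 4991 and 4693, 4882 and 4672 and 4416 and 4253 with DESeq2. Under each of these 3 alternatives 1 stromal gene, Myh11, was lower in fl/fl at 6 weeks, and 3 stromal genes were higher under the PTKO label at 6 weeks. There Pdgfra and Pdgfrb turned to -0.065 and -0.043, -0.045 and -0.013, and -0.077 and -0.047, and Cspg4 turned to -0.022 after median-of-ratios scaling and -0.030 with DESeq2. The cause was not tested. PTKO against fl/fl at 6 weeks gave 801 and 920 genes higher and lower after median-of-ratios scaling, 823 and 677 with edgeR, where 3 stromal genes were lower, and 1117 higher with DESeq2. With DMSO, edgeR called 8 genes lower and DESeq2 66 higher and 47 lower. DESeq2 also called 1406 genes higher between genotypes at 3 weeks and 932 higher from 3 to 6 weeks under the PTKO label, where edgeR called 697 lower. Interaction calls at 3 weeks were 4 and 3 genes higher and lower without a filter, 27 lower after median-of-ratios scaling, 11 and 7 with edgeR and 327 and 261 with DESeq2, which called 1 stromal gene, Tagln. At 6 weeks they were 1 and 0 with a pseudocount of 0.1, 1 and 0 with edgeR and 51 and 38 with DESeq2. Without both libraries high in adipocyte markers the 3-week interaction had 5 genes lower, and Notch3 between genotypes with DMSO was -0.047.

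Leaving out each library in turn moved several counts. Genes higher and lower ranged over 355 to 978 and 239 to 941 from 3 to 6 weeks in fl/fl and 130 to 437 and 401 to 1197 under the PTKO label, 177 to 1086 and 183 to 1440 between genotypes at 3 weeks, 124 to 852 and 313 to 2907 at 6 weeks, 3 to 200 and 2 to 227 for the interaction at 3 weeks and 0 to 74 and 0 to 170 at 6 weeks, and genes lower with DMSO over 4 to 17. Stromal genes lower ranged over 0 to 2 between genotypes at 3 weeks, 3 to 6 at 6 weeks, 0 to 1 and 0 to 2 for the interactions, and 0 to 1 and 0 to 1 for AAI at 6 weeks in fl/fl and under the PTKO label. Stromal genes higher from 3 to 6 weeks in fl/fl were 0 each time. With 2 libraries left in a group, the fit assumes that they vary like the other groups.

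Reversals without a call were small. With a pseudocount of 0.1, Des between genotypes with DMSO was 0.0013 and Fap from 3 to 6 weeks in fl/fl was 0.0037, and Des with DMSO was 0.021 after median-of-ratios scaling. Leaving out single libraries, estimates between genotypes with DMSO ran over -0.10 to 0.22 for Tagln, -0.70 to 0.17 for Pdgfra, -0.48 to 0.21 for Pdgfrb, -0.059 to 0.16 for Notch3, -0.39 to 0.30 for Des and -0.14 to 0.068 for Thy1. Pdgfra and Pdgfrb ran over -0.86 to 0.017 and -0.66 to 0.032 in the 3-week interaction, and Pdgfra over -0.065 to 0.65 with AAI at 6 weeks under the PTKO label. Between genotypes Cspg4 ran over -0.14 to 0.14 at 3 weeks and Myh11 over -0.57 to 0.14 at 6 weeks. From 3 to 6 weeks Fap ran over -0.24 to 0.15 and Thy1 over -0.24 to 0.15 in fl/fl, and Fap over -0.18 to 0.080 under the PTKO label.

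With the replicate number as a block, 9 genes were lower between genotypes with DMSO, and 53 and 7 genes were higher in the interactions at 3 and 6 weeks. Acta2 between genotypes at 3 weeks had an adjusted p of 0.0595 and Des at 6 weeks one of 0.0638 under the block, and no other stromal call changed. Deviations of libraries with the same number correlated at -0.37 to 0.24, and no comparison had all 3 pairs over 0.1. The numbers were therefore read as names only in the main fit. With 3 libraries a group this check cannot show whether same-numbered libraries share a batch.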

Other observations

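Podocytes, the filter cells of the glomerulus, carried marker genes that were mostly higher with AAI. Of 8 tested, 7 rose and 1 fell in fl/fl at 3 weeks, 7 rose and 0 fell in fl/fl at 6 weeks, 7 rose and 1 fell under the PTKO label at 3 weeks, and 6 rose and 1 fell under the PTKO label at 6 weeks, against 58.0%, 59.8%, 57.2% and 53.7% of all tested genes higher and 18.2%, 13.9%, 13.9% and 11.4% lower, with list medians of 0.97, 1.24, 0.72 and 0.71. The gene that fell in 3 of the 4 comparisons was Clic5, an intracellular channel protein gene chosen here after its values were seen, at -0.77 (adjusted p = 0.00182), -0.78 (adjusted p = 0.00188) and -0.80 (adjusted p = 0.00190). Synpo, which encodes the actin-linked protein synaptopodin, rose by 1.51 (95% CI 1.31 to 1.72, limma adjusted p = 1.99e-09) in fl/fl at 3 weeks. Ptpro, a phosphatase of podocyte foot processes, rose by 1.34 (adjusted p = 1.78e-07) there. At 6 weeks 5 of the 8 were lower under the PTKO label than in fl/fl, when 11.8% of all tested genes were. After median-of-ratios scaling 3 of the 8 were lower.

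Endothelial genes were called higher in smaller shares than all tested genes, a difference that was not tested. Of 8 tested, 4 rose and 1 fell in fl/fl at 3 weeks, 2 rose and 1 fell in fl/fl at 6 weeks, 3 rose and 1 fell under the PTKO label at 3 weeks, and 1 rose and 1 fell under the PTKO label at 6 weeks, against the same shares of all genes, with list medians of 0.30, 0.19, 0.20 and 0.061, and after median-of-ratios scaling those higher numbered 0, 0, 0 and 0 and those lower 1, 2, 1 and 2. Cdh5, the cadherin of endothelial junctions, was 0.71 (adjusted p = 0.000198) in fl/fl at 3 weeks and 0.25 (adjusted p = 0.156) after that scaling. Kdr, the receptor for vascular endothelial growth factor, was -0.76 (adjusted p = 0.00168), and Egfl7, a secreted endothelial protein, was 0.64 (adjusted p = 0.000471). Of 3 tested nerve and Schwann cell genes, 3 rose in fl/fl at both times and 1 under the PTKO label at both times, and Uchl1, a neuronal hydrolase, rose by 1.76 (adjusted p = 7.79e-06) in fl/fl at 3 weeks. Of 7 urothelium genes, 1 rose and 0 fell in fl/fl at 3 weeks, 4 rose and 0 fell in fl/fl at 6 weeks, 1 rose and 0 fell under the PTKO label at 3 weeks, and 3 rose and 0 fell under the PTKO label at 6 weeks. Krt20, a keratin of umbrella cells, had DMSO means of 0.162 CPM in fl/fl and 0.442 CPM under the PTKO label. It was thus tested largely because of its AAI libraries, and was at 6.10 (adjusted p = 1.34e-10) in fl/fl at 3 weeks. The other genes of the list were not called there, from -0.23 for Upk2 to 0.43 for Krt5. From 3 to 6 weeks in fl/fl Krt20 was -1.17 (adjusted p = 0.0174), while the others ran from 0.94 for Krt5 to 1.61 for Upk3b. Krt20 thus did not move as the rest of its list. Neither of the 2 tested adipocyte genes was called by limma in any comparison, with Fabp4, a fatty acid carrier, at 0.76 (adjusted p = 0.212) between genotypes at 6 weeks. Of the macrophage list, Mrc1, the mannose receptor, rose by 5.94 (adjusted p = 1.13e-11), C1qa by 5.62 (adjusted p = 3.76e-10) and C1qb by 5.45 (adjusted p = 4.80e-10) in fl/fl at 3 weeks.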
